A study of Mus musculus with 4 samples.

Results

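The genes described here encode 8 subunits of the BAF chromatin remodelling complex, which is rebuilt as neural progenitors leave the cell cycle. They were chosen by name, as 4 subunits of the progenitor complex (Actl6a, Phf10, Dpf2 and Ss18) and 4 of the neuronal complex (Actl6b, Dpf1, Dpf3 and Ss18l1), out of 32285 genes in the count matrices, and all 8 were found and passed the filter on low counts in every comparison. Single cells had been sequenced with 10x Genomics chemistry from microdissected medial ganglionic eminence (MGE), the ventral forebrain zone that makes cortical interneurons and several kinds of subcortical neuron. There were 4 libraries from mouse embryos at e14.5 on a C57/BL6 ICR mix background, 2 labelled St18(-/-) (null) and 2 labelled WT, all from heterozygous parents, with WT littermates as controls. Tissue had been pooled by genotype ahead of dissociation, and the sources used here do not give the size of a pool or the sex of its embryos. The null is a whole-animal deletion, made with the germline driver E2a-Cre, so that every cell of the embryo lacks the intact gene.

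BAF uses the energy of ATP to move or evict nucleosomes, and several of its positions are filled by one of a few paralogs. In the vertebrate brain the actin-related subunit BAF53A (Actl6a) gives way to BAF53B (Actl6b), the paired zinc-finger subunits BAF45A (Phf10) and BAF45D (Dpf2) to BAF45B (Dpf1) and BAF45C (Dpf3), and SS18 to its paralog CREST (Ss18l1). The exchange is known from the dividing to the postmitotic state, and neuronal subunits are known for roles in dendrite growth and synaptic plasticity. In progenitors the repressor REST is known to hold down Actl6b and microRNA genes, and miR-9* (miR-9-3p) and miR-124 are known to repress Actl6a through its 3′ untranslated region.

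Sequences of 2 of these known links were read from RefSeq and the GENCODE M21 annotation (both GRCm38), since Actl6a and Actl6b showed the clearest exchange in these data. The mature mmu-miR-9-3p is shown with its seed (bases 2 to 8) in capitals, followed by the 3′ untranslated region of Actl6a around its seed match (capitals, AGCTTTA, chr3:32726629-32726657, plus strand). The last line shows the start of Actl6b on the minus strand (chr5:137553564-137553593), with CAGCACC and GGACAG, the left and right parts of the REST-binding element, in capitals.
mmu-miR-9-3p: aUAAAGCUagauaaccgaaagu
Actl6a 3′ untranslated region: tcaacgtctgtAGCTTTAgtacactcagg
Actl6b start: ggatCAGCACCgaggcggccGGACAGctcc

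Actl6a held 1 such match in a 3′ untranslated region of 371 bases, and the other 7 members held 0. A match was present in 10.5% of 20746 genes and in 2.70% of the 926 genes with a region of like length. The seed match of mmu-miR-9-5p (ACCAAAG) was in none of the 8 members, against 11.3% of genes. Promoter windows of 250 bases before to 50 after the RefSeq start were given for 7 of the 8 members, and both strands were searched. CAGCACC was in 7.14% of 32851 windows and, among the members, in Actl6b alone. GGACAG was in 22.2% of windows and in Actl6b and Dpf2. In Actl6b the pair lay 22 to 43 bases after the start with 9 bases between its parts, a spacing found in 4 windows in all. The spacing was read from this window, so its rarity is a description and no test, and 0 members held the parts 2 bases apart, as 12 windows did.

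Actl6a lies at chr3:32706298-32726973 (plus strand), Phf10 at chr17:14945009-14961273 (minus) and Dpf2 at chr19:5896516-5913010 (minus), and Ss18 is on chromosome 18. Actl6b lies at chr5:137553517-137569582 (plus), Dpf1 at chr7:29303951-29318243 (plus), Dpf3 at chr12:83213745-83487716 (minus) and Ss18l1 at chr2:180042509-180070201 (plus). Another annotated gene overlaps Actl6a (Mrpl47 and Gm37353), Phf10 (1600012H06Rik), Dpf2 (Gm42067), Ss18 (Gm24924) and Dpf1 (Gm44632). Whether counting used strand was not given in the sources used here, so part of the counts of these 5 genes may belong to the overlapping gene.

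Libraries held 70991150 to 92984713 unique molecular identifiers (UMIs, counted molecules) in all, and 19032 cells had at least 3000 UMIs and at most 10% mitochondrial UMIs. In this order, null replicates 1 and 2 and WT replicates 1 and 2 held 6631, 3878, 4512 and 4011 of these cells, and any 2 libraries shared 4 to 11 cell barcodes. The mitochondrial limit removed more of null replicate 2, which kept 88.8% of its cells against 97.3% to 98.5% elsewhere. Nkx2-1, the factor that defines the MGE, was at 395 to 433 CPM (UMIs of a gene per 1000000 UMIs of the class) in progenitors, and Lhx6, its target in MGE neurons, at 353 to 511 CPM in neurons. The 7 pallial markers summed to 46.7 CPM in neurons of null replicate 2 and to 1.87 to 8.37 CPM in the other 3 libraries. Xist was at 593 and 1465 CPM in neurons of the null libraries and under 0.21 CPM in those of the WT libraries. The 4 Y-linked genes measured summed to 112 and 60.5 CPM in neurons of the null libraries and to 181 and 169 CPM in those of the WT libraries. The null pools thus held embryos of both sexes and the WT pools males, so embryo sex and genotype cannot be told apart.

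Cells were placed by marker genes that include no member of the complex, from the share of neuron markers (such as Tubb3, Dcx and Stmn2) among neuron, radial glia and cell cycle markers. This gave 6509 progenitors, 2153 intermediate cells and 10034 neurons, and 1719 cells lay within 0.05 of a cut. Progenitors were divided into radial glia (2048 cells, led by Hes1, Fabp7 and the like) and basal progenitors (3072 cells, with Dll1, Dll3 and Hes6). Neurons were divided into early (4528), middle (3363) and late (2143) by synaptic genes such as Snap25 and Syt1 against Sox4, Sox11 and Dlx genes. These 6 ranges are cuts along scores rather than discrete types, and are called stages below. The 15 cell cycle markers summed to 7410 to 8183 CPM in progenitors and 432 to 525 CPM in neurons. Non-neural cells (334 in all) were left out, and microglia markers summed to under 2.7 CPM in both classes. Erythroid markers summed to 58.8 to 68.6 CPM in progenitors and to 92.9 to 124 CPM in neurons. Those of oligodendrocyte precursors summed to 6.96 to 14.1 and to 2.25 to 3.15 CPM.

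Actl6b rose most of the 8 members from progenitors to neurons. It was at 9.11, 10.2, 8.87 and 10.7 CPM in progenitors and at 125, 110, 121 and 133 CPM in neurons of the 4 libraries, in the order given above. Every library's neurons stood above every library's progenitors, and the level was 12.2-fold higher (log2 fold change 3.61, SE 0.055, adjusted p = 1.1e-29, edgeR's quasi-likelihood test with library as a block and Benjamini-Hochberg adjustment). Tests across genes below are the same unless another is named, but null was set against WT without a block. Of 13679 genes tested Actl6b ranked 80 from the highest. Its low level in progenitors was below the 51.3 to 85.5 CPM of background droplets (under 100 UMIs) and in the range of the few microglia-marked cells (3.54 to 29.0 CPM, 81 cells), so expression in progenitors was not separated from free RNA.

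Actl6a, its progenitor counterpart, fell. It was at 209, 167, 178 and 166 CPM in progenitors and at 117, 86.7, 96.5 and 90.1 CPM in neurons. The groups did not overlap, and null replicate 1 was the highest in both. The log2 fold change was −0.94 (SE 0.038, adjusted p = 1.5e-19), a 1.92-fold lower level. Background droplets held 87.1 to 141 CPM, above neurons in 3 of 4 libraries. That value is the make-up of free RNA and not its amount in a cell. For Actl6b the same droplets held 51.3 to 85.5 CPM, against 8.87 to 10.7 CPM in progenitors. The part of free RNA in the level of Actl6a in neurons was not tested. With every cell thinned to 3000 UMIs, a UMI of both genes was found in 5.55% to 7.48% of neurons and in 0.725% to 1.25% of progenitors. In the 81 microglia-marked cells, which should lack Actl6b but not Actl6a, the share was 0 to 3.70% (median depths before thinning of 7828 to 13615.5 UMIs, against 5521.5 to 8248 in neurons). The part of free RNA in the share of neurons was not tested. In thinned cells, with or without the other gene, Actl6a was found in 23.0% to 29.2% of neurons and Actl6b in 25.2% to 29.6%. In progenitors these rates were 37.1% to 45.8% and 2.23% to 3.74%. Whether both genes were found together more or less often than these rates alone would give was not tested.

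Ss18l1, the neuronal paralog of Ss18 and a coactivator that responds to calcium, rose as well. It was at 11.1, 14.8, 10.6 and 9.18 CPM in progenitors and at 33.8, 43.1, 29.5 and 33.9 CPM in neurons, without overlap (log2 fold change 1.56, SE 0.065, adjusted p = 4.9e-19). Background droplets held 13.8 to 23.6 CPM and microglia-marked cells 0 to 9.74 CPM, and the part of free RNA in its level in progenitors was not tested. Ss18 went the other way, from 39.1, 43.9, 32.0 and 37.2 CPM to 18.9, 20.7, 15.2 and 17.99 CPM. Its groups did not overlap either (log2 fold change −1.11, SE 0.055, adjusted p = 3.4e-17), the largest fall of the 4 progenitor-type subunits. Background droplets held 14.7 to 32.5 CPM, above neurons in 3 of 4 libraries, which again is a make-up and not an amount. The part of free RNA in the level of Ss18 in neurons was not tested.

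The zinc-finger position was less clear-cut. Dpf1, a reader of histone marks in the neuronal complex, rose from 46.7, 44.97, 33.5 and 37.0 CPM to 131, 123, 111 and 121 CPM. The groups did not overlap (log2 fold change 1.52, SE 0.044, adjusted p = 4.4e-23), and a UMI was found in 25.2% to 39.5% of progenitors against 0 to 11.5% of microglia-marked cells (median depths of 8601 to 13431 and of 7828 to 13615.5 UMIs). Background droplets held 59.9 to 75.0 CPM, more than progenitors in any library. Dpf3 rose from 3.44, 3.88, 2.25 and 2.86 CPM to 6.62, 8.87, 5.74 and 8.22 CPM (log2 fold change 1.15, SE 0.12, adjusted p = 1.6e-09), on few molecules. Background droplets held 2.62 to 3.94 CPM of Dpf3, near its level in progenitors, and the part of free RNA there was not tested.

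Of the progenitor-type zinc-finger subunits, Phf10 fell less far than Actl6a and Ss18, and Dpf2 did not pass the test. Phf10 was at 36.3, 63.5, 47.2 and 51.0 CPM in progenitors and at 26.4, 49.0, 35.6 and 40.1 CPM in neurons. The classes overlapped between libraries, but neurons were lower in each library (log2 fold change −0.45, SE 0.048, adjusted p = 1.2e-09). Dpf2 was at 55.2, 62.1, 43.8 and 47.9 CPM in progenitors and at 50.8, 67.3, 49.5 and 47.5 CPM in neurons, higher in some libraries and lower in others. Its log2 fold change was −0.015 (95% interval −0.117 to 0.0874, adjusted p = 0.787), and its sign turned under several alternatives that left it uncalled. Background droplets held 30.6 to 50.6 CPM of Phf10 and 34.1 to 57.9 CPM of Dpf2, near their levels in both classes. The part of free RNA in these levels was not tested.

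In sum 4 members were higher and 3 lower in neurons, among 13679 genes of which 41.2% were higher and 40.4% lower, so a call alone sets no member apart. Without overlap between libraries, 4 members were higher, as were 29.4% of genes, and 2 were lower, as were 27% of genes. Relative RNA content was not measured, since CPM is a share of each class, and the median cell held 8601 to 13431 UMIs in progenitors and 5521.5 to 8248 in neurons.

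**Figure D1:**
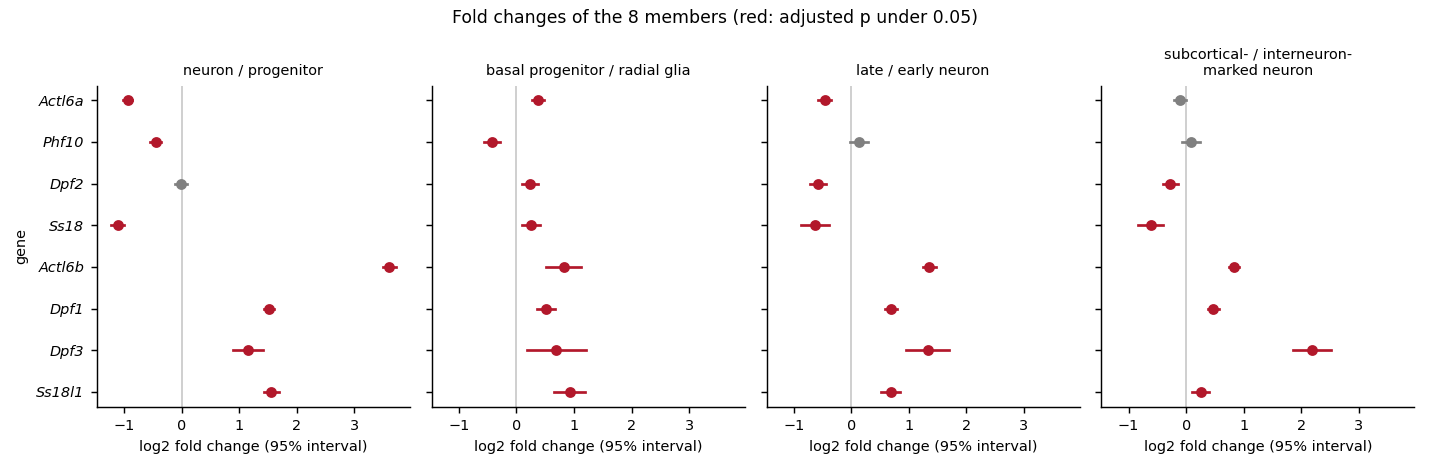
Log2 fold change (x axis) of the 8 members (y axis, progenitor-type at the top) in 4 comparisons, with 95% intervals as bars; red marks an adjusted p under 0.05 and grey a larger one. Actl6b stands at 3.61 in the first panel, where Dpf2 stands at −0.015, and Dpf3 leads the last panel at 2.19.

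By stage, 3 of the neuron-type subunits climbed at every step. The share of all genes with such a course, or with those of the next paragraph, was not computed, so a course alone sets no member apart. Actl6b averaged 6.71 CPM in radial glia, 11.2 in basal progenitors, 33.3 in intermediate cells, 73.4 in early, 124 in middle and 202 in late neurons, and no 2 neighbouring stages overlapped between libraries. Dpf1 went through 32.4, 44.5, 56.8, 91.0, 133 and 158 CPM and Ss18l1 through 7.20, 13.0, 19.2, 27.5, 34.7 and 48.1 CPM, each in the same order in 4 of 4 libraries. Dpf1 overlapped between radial glia, basal progenitors and intermediate cells, and Ss18l1 at every step after basal progenitors. Dpf3 stayed at 2.20 to 4.28 CPM up to early neurons, with overlap at each step, and then reached 8.30 and 11.2 CPM.

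The progenitor-type subunits had 3 different courses. Actl6a and Ss18 were highest in basal progenitors in 4 of 4 libraries (means of 192 and 39.4 CPM), above radial glia (155 and 34.6 CPM), and lowest in late neurons (80.8 and 14.3 CPM). For both, every library's early neurons (means of 104 and 20.7 CPM) stood below every library's radial glia, basal progenitors and intermediate cells. Phf10 was highest in radial glia (60.1 CPM) and lowest in early neurons (35.0 CPM) in each library, and late neurons (40.9 CPM) overlapped with all stages. Dpf2 was highest in intermediate cells in 4 of 4 libraries (68.1, 80.6, 60.0 and 59.6 CPM) and lowest in late neurons (39.7, 55.2, 37.6 and 38.7 CPM). Its mean was thus highest between progenitors and neurons, whose difference did not pass the test. Intermediate cells overlapped between libraries with early neurons (mean of 59.7 CPM, 52.0 to 75.0 CPM). No test set intermediate cells against another stage.

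**Figure D2:**
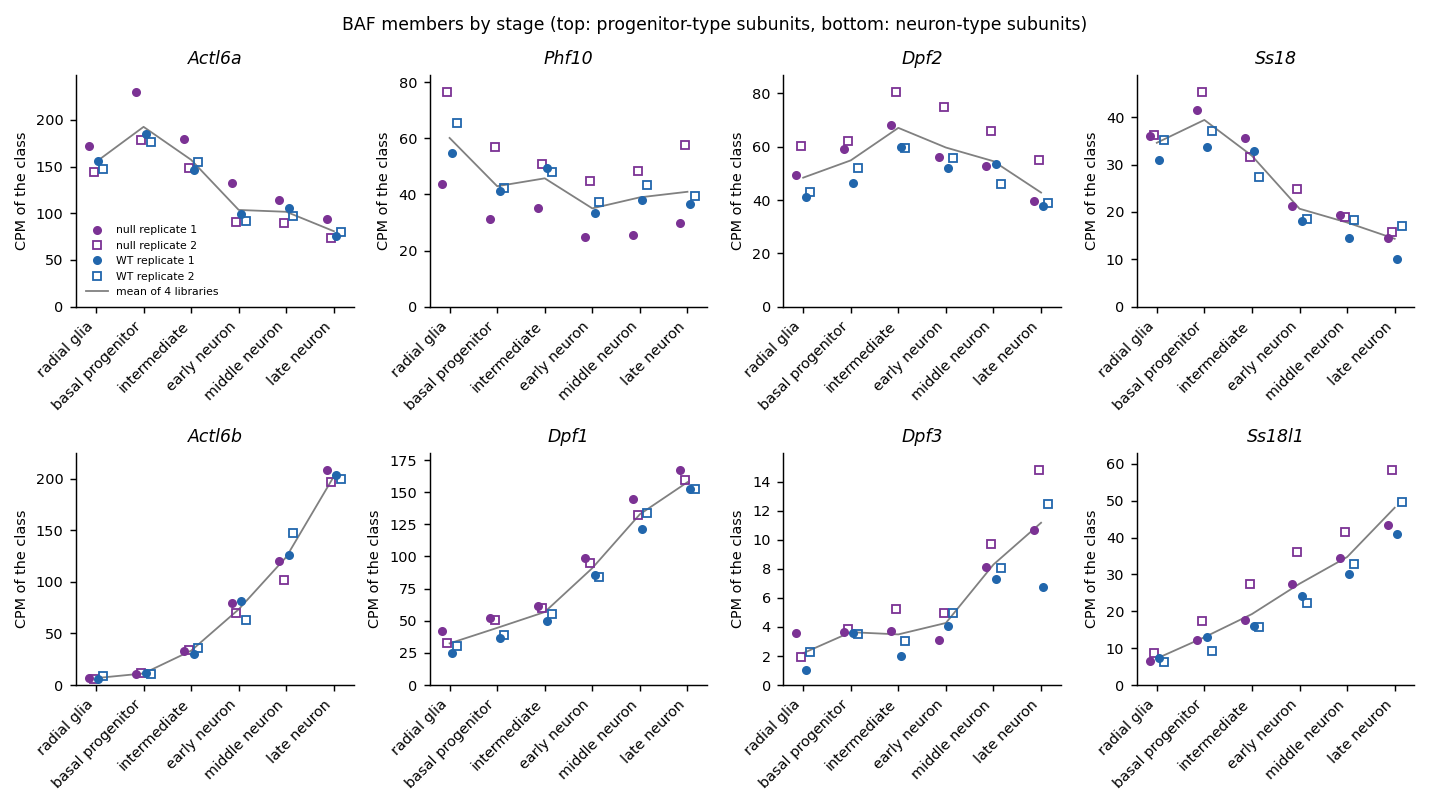
CPM (y axis, from 0, a separate scale per gene) of the 8 members in 6 stages (x axis); each point is 1 library, colour is the label (purple null, blue WT), the symbol is the replicate and the line is the mean of the 4 libraries. The lower panels climb toward late neurons, Dpf2 peaks in intermediate cells and Phf10 starts highest in radial glia.

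Within progenitors, all 8 members passed the test between basal progenitors and radial glia, among 62.1% of 11870 genes (30.4% higher, 31.7% lower), and 7 of the 8 were higher. Ss18l1 had the largest fold change in the test reported, from 6.52, 8.76, 7.22 and 6.30 CPM in radial glia to 12.3, 17.3, 13.0 and 9.23 CPM in basal progenitors (log2 fold change 0.93, SE 0.14, adjusted p = 2.2e-08). The 2 groups of libraries did not overlap. Actl6b followed (0.82, SE 0.15, adjusted p = 2.2e-06), then Dpf3 (0.69, SE 0.26, adjusted p = 0.016; 1.12 without null replicate 1, above the 0.87 of Ss18l1) and Dpf1 (0.51, SE 0.077, adjusted p = 2.9e-08). The part of free RNA in the low levels of Ss18l1, Actl6b and Dpf3 was not tested, so their folds and this order carry that limit.

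Of the progenitor-type subunits, Actl6a (0.38, SE 0.052, adjusted p = 3.0e-09), Ss18 (0.26, SE 0.077, adjusted p = 0.0030) and Dpf2 (0.24, SE 0.070, adjusted p = 0.0021) rose as well, each as a log2 fold change. Phf10 alone fell, from 43.6, 76.5, 54.6 and 65.5 CPM to 31.3, 57.0, 41.0 and 42.3 CPM, lower in 4 of 4 libraries (log2 fold change −0.42, SE 0.069, adjusted p = 2.1e-07). Phf10 is known as a subunit needed for progenitors to keep dividing. With cells thinned to 3000 UMIs, which left fewer molecules, 3 of the 8 members passed the test (Actl6a, Dpf1 and Phf10), as did 4611 of 9864 genes, and the log2 fold changes of Ss18l1 (0.54, adjusted p = 0.064) and Actl6b (0.55, adjusted p = 0.080) did not. Without the library block 4 members passed, as did 4803 of 11870 genes, and DESeq2 called 6 members and 5718 genes. The calls lost without the block were those of Phf10 (adjusted p = 0.070), Dpf2 (0.093), Ss18 (0.062) and Dpf3 (0.064), and DESeq2 did not call Ss18 (adjusted p = 0.058) or Dpf3 (0.085). That of Dpf2 was also lost without null replicate 1 (adjusted p = 0.084, edgeR), and that of Dpf3 without null replicate 2 (adjusted p = 0.096) or WT replicate 1 (adjusted p = 0.12).

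Cell cycle markers moved with these stages, summing to 5165 to 5718 CPM in radial glia and 8662 to 9624 CPM in basal progenitors, and so did neuron markers, at 1037 to 1357 and 2303 to 2804 CPM. Progenitors with few cell cycle transcripts (679 cells) held Actl6a at 158, 135, 113 and 151 CPM, and those with many (4231 cells) at 216, 172, 185 and 174 CPM. Dpf1 was at 28.4, 17.6, 14.6 and 17.6 CPM in the first and at 52.5, 50.01, 37.7 and 42.1 CPM in the second, higher in 4 of 4 libraries. Dpf1, listed as neuronal, thus stood higher in the progenitors with many cell cycle transcripts. So did Ss18l1 (5.29 to 9.55 against 11.2 to 16.9 CPM) and Ss18 (20.4 to 31.7 against 33.5 to 44.5 CPM). Means were also higher for Actl6b (7.35 and 11.3 CPM), Dpf2 (46.8 and 54.1 CPM) and Dpf3 (2.28 and 3.63 CPM). The share of all genes that moved this way was not computed. The groups also differed in stage, since radial glia markers summed to 7165 to 9722 CPM in the first and 1689 to 2161 CPM in the second, and neuron markers to 1136 to 1285 and 2134 to 2571 CPM. With few cell cycle UMIs, a cell passes the cut on neuron share mainly through radial glia markers, so the cuts set part of this. Phf10 was at 39.3, 71.3, 54.7 and 49.3 CPM in the first and at 34.8, 60.5, 46.4 and 49.3 CPM in the second, with no rise in any library. These are levels without a test, and the part of the cell cycle or of these markers in the differences was not tested.

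Within neurons, 7 of the 8 members passed the test between late and early neurons, among 63.1% of 11708 genes (29.8% higher, 33.3% lower). Actl6b went from 79.5, 69.7, 81.0 and 63.3 CPM to 208, 196, 204 and 200 CPM, with late neurons nearly level across libraries (log2 fold change 1.36, SE 0.052, adjusted p = 6.0e-28). Dpf3 rose about as far from its low level, from 3.13, 4.93, 4.09 and 4.95 CPM to 10.7, 14.8, 6.78 and 12.5 CPM (1.32, SE 0.18, adjusted p = 1.9e-08). Dpf1 (0.69, SE 0.051, adjusted p = 8.3e-17) and Ss18l1 (0.68, SE 0.083, adjusted p = 5.9e-10) rose less.

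Ss18 fell furthest among the others in the test reported, from 21.2, 24.9, 18.04 and 18.5 CPM to 14.45, 15.8, 10.2 and 17.0 CPM, without overlap (−0.64, SE 0.12, adjusted p = 8.6e-06). With 1 library left out Ss18 ranged from −0.76 to −0.56 and Dpf2 from −0.59 to −0.58, so their order was not fixed. Dpf2 fell by 0.58 (SE 0.069, adjusted p = 3.1e-10) and Actl6a by 0.46 (SE 0.058, adjusted p = 1.1e-09) on the log2 scale. Phf10 did not pass the test (log2 fold change 0.13, 95% interval −0.0266 to 0.292, adjusted p = 0.14), though it did with library totals alone (adjusted p = 0.0080) and in thinned cells (adjusted p = 0.018). Each neuron-type subunit was thus higher, and 3 progenitor-type subunits lower, in late than in early neurons. Fate and region markers moved with this comparison. LGE markers summed to 77.9 to 210 CPM in early and 1210 to 2372 CPM in late neurons, interneuron markers to 2052 to 2872 and 584 to 810 CPM, and subcortical markers to 332 to 439 and 700.5 to 869 CPM. Their part in the differences was not tested.

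Within each paralog set, the share of UMIs given by the neuron-type genes cancels library size. It is read only as a change between classes, and not as the relative abundance of the paralogs. The share of Actl6b among Actl6a and Actl6b was 4.18%, 5.76%, 4.75% and 6.02% in progenitors and 51.8%, 55.9%, 55.7% and 59.5% in neurons. It rose by 50.6 points ± 2.44 (SD, n = 4), higher in 4 of 4 libraries (two-sided exact sign-flip permutation p = 0.13, the smallest that 4 libraries allow). The share of Ss18l1 among Ss18 and Ss18l1 was 22.1%, 25.2%, 25.0% and 19.8% in progenitors and 64.1%, 67.5%, 66.0% and 65.3% in neurons, a rise of 42.7 points ± 1.95 (SD, n = 4; exact p = 0.13). Dpf1 and Dpf3 made up 35.4%, 28.0%, 28.2% and 28.7% of the 4 zinc-finger subunits in progenitors and 64.1%, 53.1%, 57.9% and 59.7% in neurons, a rise of 28.6 points ± 2.51 (SD, n = 4; exact p = 0.13).

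By stage, the shares rose as follows. Actl6b took 4.17% ± 0.845 of its pair in radial glia, 5.59% ± 0.784 in basal progenitors, 17.5% ± 1.56 in intermediate cells and 41.7% ± 3.26 in early neurons (SD, n = 4). Ss18l1 took 17.2% ± 2.30 of its pair in radial glia and 37.3% ± 6.39 in intermediate cells. In late neurons the shares were 71.5% ± 1.82 for Actl6b and 77.1% ± 2.77 for Ss18l1. Dpf1 and Dpf3 took 24.3% ± 5.77 of the zinc-finger set in radial glia and 67.1% ± 4.64 in late neurons. In background droplets the shares were 29.2% to 48.1% (Actl6b), 29.8% to 61.6% (Ss18l1) and 38.6% to 50.7% (Dpf1 and Dpf3). The part of free RNA in the shares of any class or stage was not tested.

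**Figure D3:**
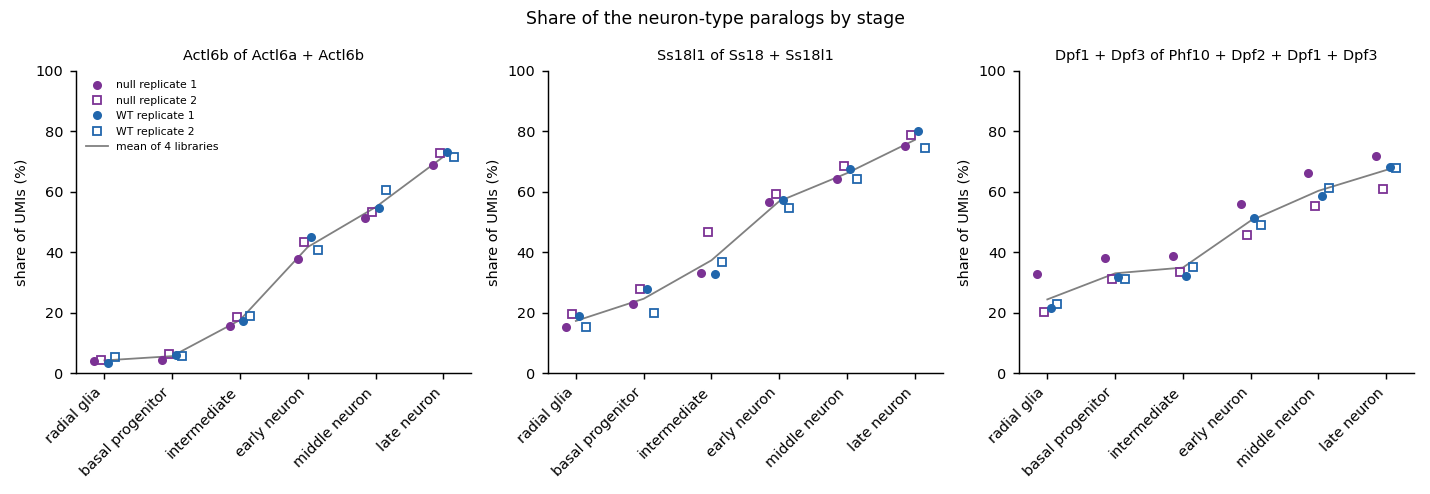
Share of UMIs (y axis, percent) given by the neuron-type genes within each paralog set in 6 stages (x axis); points are libraries (purple null, blue WT) and lines their means. The Actl6b share goes from 4.17% in radial glia to 71.5% in late neurons, that of Ss18l1 from 17.2% to 77.1% and that of Dpf1 and Dpf3 from 24.3% to 67.1%.

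Neurons were further marked by genes known from subcortical ventral forebrain neurons (2514 cells, with Lhx8, Zic1, Isl1 and others) or from interneurons (4481 cells, with Maf, Erbb4, Zeb2 and others). The study asks about globus pallidus projection neurons, which these subcortical markers do not single out. Of the members, 6 of 8 passed the test, 4 higher and 2 lower in subcortical-marked neurons, among 48.6% of 11545 genes (25.8% higher, 22.8% lower). Dpf3 was at 3.16, 4.52, 2.10 and 3.75 CPM in interneuron-marked and at 12.8, 21.1, 13.4 and 15.8 CPM in subcortical-marked neurons. The groups were far apart, a 4.58-fold difference (log2 fold change 2.19, SE 0.16, adjusted p = 9.8e-11), ranked 220 from the highest. Background droplets held 2.62 to 3.94 CPM, the make-up of free RNA and not its amount in a cell, so its part in the lower level was not tested. That level rests on few molecules, and so does the size of the fold.

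Actl6b was at 96.0, 86.7, 90.8 and 90.7 CPM in interneuron-marked and at 165, 154, 169 and 172 CPM in subcortical-marked neurons (0.83, SE 0.044, adjusted p = 3.5e-13). Dpf1 (0.47, SE 0.044, adjusted p = 6.9e-09) and Ss18l1 (0.25, SE 0.073, adjusted p = 0.0065) were higher too, the latter not under 5 of the alternatives, among them without null replicate 1 (adjusted p = 0.079). Ss18 (−0.62, SE 0.10, adjusted p = 4.0e-05) and Dpf2 (−0.28, SE 0.064, adjusted p = 0.00092) were lower, the latter not without the library block (adjusted p = 0.10). Actl6a (−0.10, 95% interval −0.204 to −0.000607, adjusted p = 0.090) and Phf10 (0.087, 95% interval −0.0672 to 0.241, adjusted p = 0.36) did not pass, though Actl6a did without WT replicate 2 (adjusted p = 0.040) and with stricter marker cuts (adjusted p = 0.047).

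Maturity markers moved with fate, since the 9 late neuron genes summed to 3359 to 5337 CPM in subcortical-marked and to 2238 to 3138 CPM in interneuron-marked neurons, and their part in the difference was not tested. LGE markers summed to 805 to 2221 CPM in the former and to 68.7 to 111 CPM in the latter. In neurons marked by LGE genes (712 cells, among them Ebf1 and Meis2), Actl6b was at 213, 184, 208 and 175 CPM but Dpf3 only at 1.31, 3.86, 1.67 and 4.06 CPM. Dpf3 was therefore low in LGE-marked neurons, where Actl6b was high, and high in subcortical-marked neurons. In neurons marked by CGE genes (618 cells), Actl6b was at 78.8 to 101 CPM, on both sides of its range in interneuron-marked neurons (86.7 to 96.0 CPM). Ss18 was at 25.2, 25.2, 18.8 and 32.7 CPM there, against 18.9 to 23.4 CPM in interneuron-marked neurons.

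**Figure D4:**
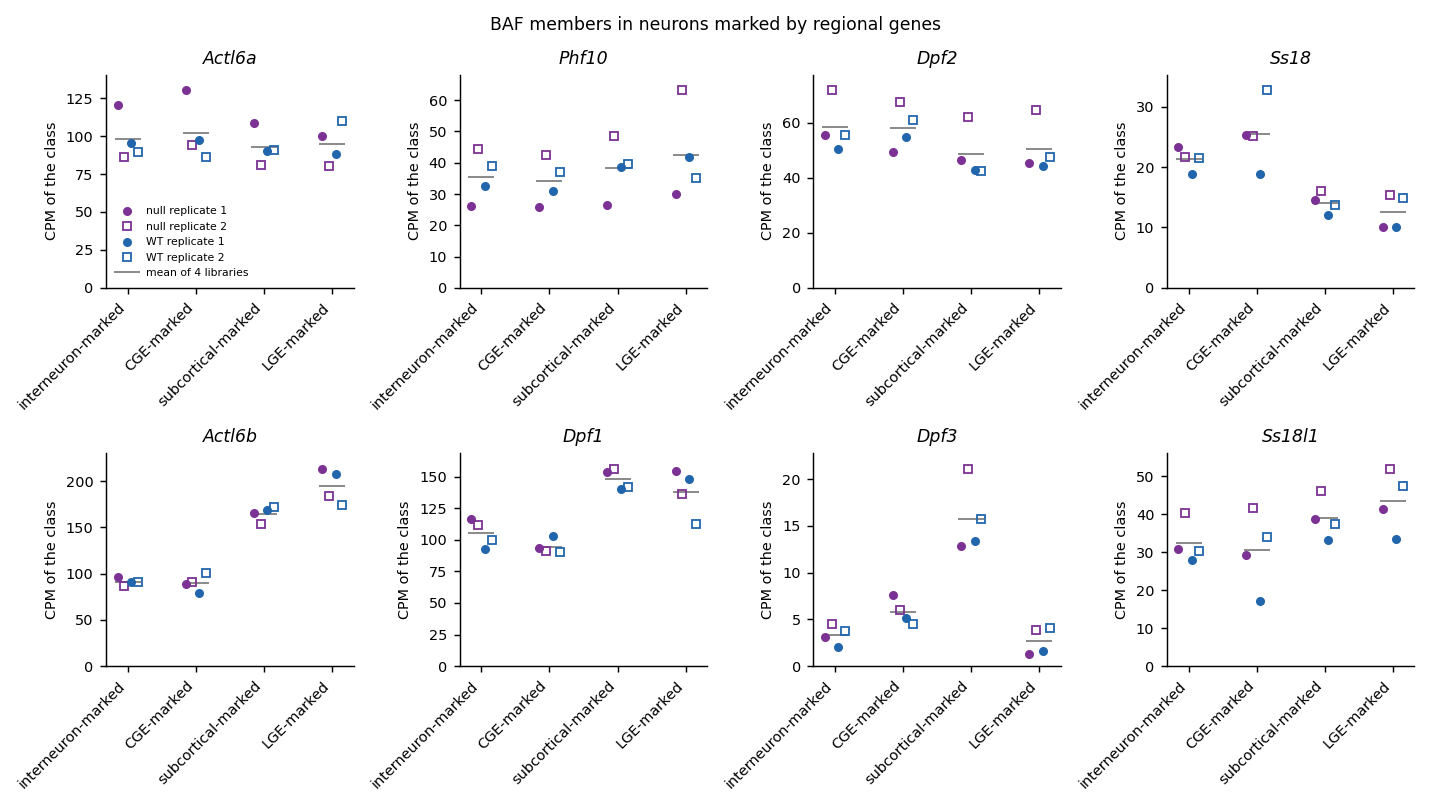
CPM (y axis, from 0, a separate scale per gene) of the 8 members in neurons marked by interneuron, CGE, subcortical and LGE genes (x axis); points are libraries (purple null, blue WT) and dashes their means. Dpf3 stands at 12.8 to 21.1 CPM in subcortical-marked neurons and at 7.57 CPM or less in the others, while Actl6b is high in both subcortical-marked and LGE-marked neurons.

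The series was made to ask what loss of St18, a zinc-finger transcription factor of immature MGE neurons, changes. St18 itself was at 12.2 and 39.1 CPM in progenitors of the libraries labelled null and at 23.4 and 34.6 CPM in those labelled WT. In neurons it was at 23.7 and 70.5 CPM against 42.1 and 53.4 CPM, so null replicate 1 was the lowest and null replicate 2 the highest of the 4. The allele removes internal exons, and UMIs from elsewhere in the transcript may remain, so this is no firm check of the labels. The frameshift that it leaves could also lower the transcript through decay, and in that respect the library labelled null replicate 2 was not below WT. It shared with null replicate 1 a high level of Xist that both WT libraries lacked, which shows that the pools differed but does not check the allele. Values without this library are given where a call depends on it.

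No member passed the test between libraries labelled null and WT, in progenitors (1.11% of 13451 genes called, 0.134% higher and 0.974% lower) or in neurons (0.0516% of 13561 genes, 0.0295% higher and 0.0221% lower). Log2 fold changes ran from −0.21 (Actl6b) to 0.33 (Dpf3) in progenitors and from −0.25 (Actl6b) to 0.13 (Dpf2) in neurons. At an unadjusted p under 0.05, edgeR called 0 members in either class, against 18.7% and 16.5% of genes, and DESeq2 also called 0, against 11.8% and 11.2%. Dpf1 and Dpf2 were under 0.05 unadjusted in progenitors with library totals alone, as were 27.8% of genes, and Actl6b was in neurons with cells thinned to 3000 UMIs (15.9% of genes) and without pallial, LGE or CGE cells (17.0%). The 95% interval of Actl6b in neurons was −0.542 to 0.0420, and that of Actl6a was −0.388 to 0.362. Calls over all genes were 18 higher and 131 lower in progenitors and 4 higher and 3 lower in neurons. With library totals alone, which moved the median of all genes to 0.20 and 0.14, they were 645 and 142, and 182 and 61, and again 0 members passed.

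The 2 libraries labelled null lay on both sides of WT for Phf10. In neurons Phf10 was at 26.4 CPM in null replicate 1, the lowest, and at 49.0 CPM in null replicate 2, the highest, with 35.6 and 40.1 CPM in WT. Without null replicate 2 its log2 fold change was −0.61 (adjusted p = 0.031, among 357 of 13653 genes called) and without null replicate 1 it was 0.20 (adjusted p = 0.24). Without null replicate 1, Actl6b (−0.38, adjusted p = 0.012) and Actl6a (−0.28, adjusted p = 0.048) passed in neurons, when 2738 of 13738 genes were called in place of 7. In progenitors Actl6a (−0.31, adjusted p = 1.4e-06) passed without null replicate 1, as did 4789 of 13659 genes, and Phf10 (−0.56, adjusted p = 9.8e-08) and Dpf1 (0.28, adjusted p = 0.026) without null replicate 2, as did 2383 of 13528 genes. Those calls rest on a single null library.

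The change from progenitor to neuron did not pass a test of difference between genotypes for any member (interaction, 0.413% of 14283 genes called, 0.308% higher and 0.105% lower). Dpf1 was nearest, with a change smaller in the libraries labelled null by 0.17 on the log2 scale (95% interval −0.335 to −0.000512, unadjusted p = 0.0493, adjusted p = 0.58). Dpf1 was the 1 member under 0.05 unadjusted in edgeR, as were 8.55% of genes, and DESeq2 called 0 members with or without adjustment (1.48% of genes unadjusted). Over all genes 44 were higher and 15 lower, but 20 and 18 with RLE scaling and 21 and 39 with library totals alone. For the other 7 members the interval held 0, with the widest for Dpf3 (−0.825 to 0.250).

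**Figure D5:**
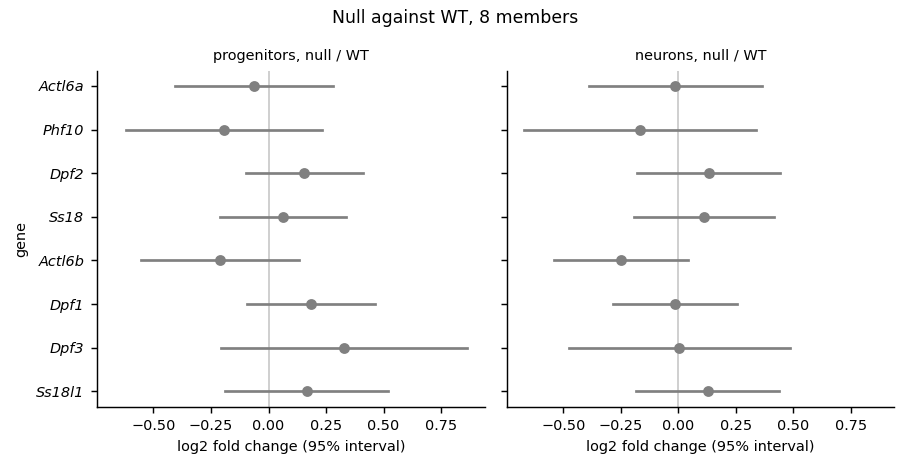
Log2 fold change of libraries labelled null against WT (x axis) for the 8 members (y axis) in progenitors and neurons, with 95% intervals as bars. All points are grey, since none has an adjusted p under 0.05, and every interval crosses 0.

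Transcripts of other BAF subunits also differed between the classes. Of 23 further subunits found in the matrices, 15 were higher and 7 lower in neurons and 1 was not called (against 41.2% and 40.4% of all genes), with a median log2 fold change of 0.33 against 0.019 over all genes. Smarca2, one of the alternative ATPases, rose from 46.7 ± 7.29 to 167 ± 8.79 CPM (mean ± SD, n = 4; log2 fold change 1.77, SE 0.045, edgeR adjusted p = 1.8e-24). Smarca4, the other ATPase, rose less, from 327 ± 52.9 to 426 ± 59.0 CPM (0.33, SE 0.035, edgeR adjusted p = 1.3e-09), and is named here after its value was seen.

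Bcl11a (1.52) and Bcl11b (1.39), zinc-finger proteins that associate with BAF in neurons, and Arid1b (1.25), a DNA-binding subunit, also rose. Bcl7a (−0.69), Bcl7c (−0.67), the core subunit Smarcc1 (−0.40) and Brd7 (−0.33), a bromodomain subunit of the PBAF form, were lower (all log2 fold changes past the test). Between basal progenitors and radial glia 16 of the 23 were higher and 2 lower (30.4% and 31.7% of all genes). Between late and early neurons 5 were higher and 13 lower (29.8% and 33.3%), and in subcortical-marked against interneuron-marked neurons 5 were higher and 12 lower (25.8% and 22.8%). None of the 23 was called between genotypes.

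The known regulators of the exchange moved as follows between the same classes. Rest, the repressor of neuronal genes, fell from 26.1 ± 5.41 CPM in progenitors to 10.1 ± 2.47 CPM in neurons (mean ± SD, n = 4; log2 fold change −1.43, SE 0.077, edgeR adjusted p = 1.9e-16). Its corepressors Rcor1 (−0.55) and Rcor2 (−0.34) and the phosphatase Ctdsp1 (−1.82), which acts with REST, fell, while Rcor3 (0.17) rose. The splicing repressor Ptbp1, which is exchanged for Ptbp2 in neurons, fell by 1.72, and Ptbp2 rose by 0.18 on the log2 scale.

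The host transcript Mir124a-1hg rose from 72.3 ± 15.5 to 312 ± 52.3 CPM (log2 fold change 2.06) and Mir124-2hg by 0.82. Mir9-3hg, a host of miR-9, was slightly lower (−0.13, edgeR adjusted p = 0.0059), and C130071C03Rik was not called (0.060, edgeR adjusted p = 0.15). Host transcripts are not the mature microRNAs, which were not measured.

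Over the 24 sums (4 libraries in 6 stages), Actl6b was most like Rab3a and Nsg1, genes of synaptic vesicles and endosomes (Pearson r of 0.995 and 0.995), among 6422 candidate genes. Dpf1 was most like Fam171a2 (0.985) and Ttll1 (0.982), Ss18l1 was like Dpysl5 (0.983), and Dpf3 most like Ankrd44 (0.934) and Atp2b2 (0.925). Actl6a was nearest to the linker histone H1fx (0.969) and the replication factor Rfc3 (0.965), and Ss18 to the cell cycle phosphatase Cdc25a (0.971) and Luzp1 (0.964). Dpf2 was nearest to Zfp207 (0.958) and Zfp334 (0.940), and Phf10 to Iars2 (0.890) and Psmd1 (0.867). Among the members themselves, Actl6a and Ss18 ran together (r = 0.90), as did Actl6b and Dpf1 (r = 0.973), while Dpf2 was near 0 with every neuron-type subunit (r of −0.143 to 0.0319). These sums share libraries and depth, so the values describe likeness and carry no test.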

How the data were processed

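For each of the 4 libraries the authors deposited the UMI counts of every barcode as unnormalized matrices, before any cell was called. Per the labels reads were aligned to GRCm38 with Cell Ranger 5.0.1, whereas the file headers name Cell Ranger 4. Replicate numbers follow sample order. The members and gene lists were chosen with earlier results of these data known. Barcodes with at least 3000 UMIs and at most 10% mitochondrial UMIs were kept as cells, no doublet caller was run, and cells with the highest totals were left out in an alternative (0.8% per 1000 cells).

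Cells with over 1% erythroid UMIs or 3 genes of another non-neural list were left out. The neuron share of marker UMIs (at least 10) was under 0.4 in progenitors and over 0.7 in neurons. The radial glia share against basal markers was at least 0.8 in radial glia and under 0.6 in basal progenitors. The late share against early markers was under 0.15 in early and at least 0.3 in late neurons. Subcortical-marked neurons had at least 3 UMIs of subcortical markers, with a subcortical share of at least 0.5 among subcortical and interneuron marker UMIs. Interneuron-marked neurons had at least 6 UMIs of interneuron markers, with a subcortical share of at most 0.1. LGE- and CGE-marked neurons held 3 genes of their list. Few and many cell cycle transcripts meant shares of under 0.2% and at least 0.5% of UMIs.

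UMIs of a class were summed within each library and tested with edgeR 4.0.16 (TMM, filterByExpr, quasi-likelihood F-test, Benjamini-Hochberg over all genes tested, two-sided, threshold 0.05), with library as a block between classes, since both classes come from each library. DESeq2 1.42.0 was an alternative. Both were run on simulated data with the same dispersion for every gene and no difference between libraries beyond depth. That setting leaves out the spread between the real libraries, so it is no check of the p-values against that spread. Libraries of pooled embryos were the replicates, which the study calls biological. Which litters made up a pool is not given in the sources used here, so p-values cover these libraries only. Between classes and for the interaction, they set the change within a library against the spread of that change over the libraries. For null against WT, they set the difference against the spread between libraries. CPM were computed from the same sums. Other alternatives were RLE scaling, library totals alone, no filter, stricter cuts, at least 5000 UMIs, thinning to 3000 UMIs, removal of cells with pallial, LGE or CGE markers, no block, and leaving out each library. The text names all members, St18, up to 4 other BAF subunits per direction with the largest change at 10 CPM or more, all listed regulators, and for each member the 2 genes nearest in log2(CPM + 1) at 20 CPM or more. A gene that met the last rule is not reported here. Gene IDs matched GENCODE M21 for 99.6%. R 4.3.3, Python 3.11.15 and matplotlib 3.10.9 were used.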

Additional observations from a re-analysis of the deposited data

Results flagged for a closer look

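Among 64 groups of 4 libraries (8 members in 8 classes), 4 held a library far from the other 3 by Dixon's criterion, where chance flags about 1 in 20. Null replicate 1 stood alone for Actl6a in basal progenitors, at 230 CPM against 177 to 184 CPM in the others. Null replicate 2 stood alone for Dpf2 in neurons (67.3 CPM) and in late neurons (55.2 CPM), and for Ss18l1 in intermediate cells (27.5 CPM). All 4 were high values in a library labelled null, and the classes of a library share its cells and depth, so the groups were not independent.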

How the results depend on the processing

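Between neurons and progenitors, 7 of 8 members kept direction and call under every alternative run, and Dpf2, never called, turned to 0.035 with library totals alone, 0.0054 without the cells of highest totals, 0.0058 without pallial, LGE or CGE cells, and ranged from −0.068 to 0.032 with 1 library left out (log2 fold changes). Between basal progenitors and radial glia, 4 members passed without the replicate block and 3 in thinned cells. Without the replicate block 7, 7 and 4 members passed between neurons and progenitors, late and early neurons, and fates, as did 9010 of 13679, 5204 of 11708 and 2884 of 11545 genes, and the genes called fell from 7372 to 4803 (basal progenitors) and from 5612 to 2884 (fates). Thinning lowered the former to 4611. With stricter cuts the pair shares rose by 54.3 (Actl6b), 45.5 (Ss18l1) and 31.8 (Dpf1 and Dpf3) points, and leaving out 1 library gave 49.6 to 51.6, 41.8 to 43.3 and 27.8 to 29.8 points. No paired analysis was possible because the labels give no replicate numbers, and the littermate controls of the study are not tied to single null libraries, so the block applies to classes of 1 library only.

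For null against WT, 0 to 2 members passed in each class with 1 library left out, and genes called ranged from 45 to 4789 in progenitors (149 in the test reported), from 5 to 2738 in neurons (7) and from 17 to 153 for the interaction (59), with 4789 and 2738 without null replicate 1. DESeq2 called 351, 312 and 18. In progenitors the sign turned for Actl6a (0.13) and Phf10 (0.020) with library totals alone. With 1 library left out it turned for Actl6a (−0.31 to 0.14), Phf10 (−0.56 to 0.11) and Ss18 (−0.045 to 0.17). In neurons it turned for Actl6a (0.12 with library totals alone, 0.021 at 5000 UMIs, 0.0040 without pallial, LGE or CGE cells) and for Dpf1 (0.13 with library totals alone, 0.0099 with stricter cuts, 0.058 in thinned cells, 0.022 without pallial, LGE or CGE cells). It also turned for Dpf3 (−0.017 with stricter cuts, −0.096 at 5000 UMIs). Leaving out 1 library in neurons gave Actl6a −0.28 to 0.23, Phf10 −0.61 to 0.20, Dpf2 −0.026 to 0.30, Dpf1 −0.094 to 0.080, Dpf3 −0.23 to 0.26 and Ss18l1 −2.2e-06 to 0.27. None of the reversed values passed the test, and the cause of these turns was not tested. Precision is limited by 2 libraries a genotype and, for Dpf3, by its few molecules (under 9 CPM in either class).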

Other observations

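Other subunits of the shared core, named after their values were seen, also rose in neurons. Smarcc2, the paralog of Smarcc1, went from 178 ± 36.4 to 318 ± 55.6 CPM (mean ± SD, n = 4; log2 fold change 0.79, edgeR adjusted p = 3.0e-18), while Smarcc1 fell from 504 ± 52.1 to 397 ± 43.8 CPM. Of the Smarcd paralogs, Smarcd1 (0.48) and Smarcd3 (0.58) rose and Smarcd2, at 5.64 ± 1.07 CPM in progenitors, fell by 0.34 on the log2 scale. Actb, the actin of the complex and of the cytoskeleton, rose by 0.67.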
